A study of Mus musculus with 104 samples.

Results

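Gabra3, Gabra5, Gabrb2, Gabrg3 and Gabrd encode 5 of the 19 subunits of the mouse GABA-A receptor family. They were taken by name as subunits whose genes lie outside the chromosome 5 cluster that holds Gabra2. All 5 were among the 24060 genes of the RefSeq count table, and all 5 were among the 15723 genes that passed the filter on low counts and were tested. Of the other 14 subunit genes, 9 were tested. The question was how the levels of these 5 genes compare, how far they vary, and whether they shift in the lines in which Gabra2 is high.

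RNA came from the cerebral cortex of wild type C57BL/6 mice, 6 months old. The mice belong to 13 lines, each named in the labels after a gene, with 4 females and 4 males per line, 1 library per mouse and so 52 libraries of each sex. Gabra2 is high in the lines Tbc1d8 and Gsg1l and mixed in Dach1. Each of these 3 lines was set against the same 10 lines (Arpp19, Ece2, Hrk, Kdm3b, Morf4l1, Pcdh20, Ppp1ca, Rasgef1a, Rgs9 and Zswim6), so the 3 comparisons share their controls. Every mouse is labelled wild type and no treatment is given, so each line stands for untreated animals. The labels tag the lines as batches, so line and batch cannot be told apart. Of the libraries, 96 were on plate 1 and 8 on plate 2, and plate was not a term in the tests. From the 3 lines, plate 2 held Tbc1d8 male 45 and male 47, Dach1 female 5 and male 7, and Gsg1l female 16. From the 10 lines it held Arpp19 male 4, Morf4l1 female 25 and Rgs9 female 44. The share of plate 2 libraries was thus larger in the 3 lines than in the 10 lines. Kinship between the mice is not stated. The sample names carry a middle number that 33 mice share with another mouse of their line and sex, and what it stands for is not given in the sources used here. The tests took each mouse as an independent sample, so p-values may be too small if such mice were related or housed together. With the mice of a shared number summed, 87 samples remained.

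GABA-A receptors are chloride channels built of subunits around a central pore, usually alpha and beta subunits with a gamma or a delta subunit. GABA binds between alpha and beta subunits, and benzodiazepines bind between certain alpha subunits and a gamma subunit. Receptors with gamma subunits gather at synapses, where they carry fast inhibition, while those with delta, and many with alpha 5, sit outside synapses and carry a lasting tonic current. Beta 2 is among the common beta subunits of the adult cortex.

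The genes lie apart in the genome, with coordinates on GRCm38 from GENCODE vM21. Gabra3 (alpha 3) is on the minus strand at chrX:72432681-72656848. Gabra5 (alpha 5, minus strand, chr7:57407672-57510059) and Gabrg3 (gamma 3, minus strand, chr7:56716465-57387188) are neighbours on chromosome 7. Gm9962 overlaps Gabra5 on the opposite strand, and since the strand setting of the counting is not given in the sources used here, reads of the overlap may have been counted for either gene. Gabrb2 (beta 2) is on the plus strand at chr11:42419757-42629028, and Gabrd (delta) is on the minus strand at chr4:155384980-155398112.

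The starts of these genes differ in base composition, shown here because the RNA of 4 of them varied together between mice, as described further on. Each run is the RefSeq promoter window on GRCm38.p6, from 250 bases before to 50 bases after the start, 5′ to 3′ on the strand of the gene, and 4 of the 5 genes matched an entry (Gabrd did not). Where a gene has several windows, the one furthest upstream is printed. The RefSeq genes of Gabra5 and Gabrb2 begin further upstream, at chr7:57591016 and chr11:42419515. No window was available there, so the runs of these genes do not show their furthest upstream starts. Capitals mark 3 motifs, searched on both strands. The first is TATAAA, a core of many promoters, another is GGGCGG, to which Sp1 binds, and the last is CCAAT, to which NF-Y binds.
Gabra3 (chrX:72656870-72657169, minus strand): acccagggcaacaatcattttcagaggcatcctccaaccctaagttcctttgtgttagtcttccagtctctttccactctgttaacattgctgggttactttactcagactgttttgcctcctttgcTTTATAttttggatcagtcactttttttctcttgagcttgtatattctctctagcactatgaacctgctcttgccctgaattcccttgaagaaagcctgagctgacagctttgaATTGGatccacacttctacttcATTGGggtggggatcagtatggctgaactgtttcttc
Gabra5 (chr7:57510010-57510309, minus strand): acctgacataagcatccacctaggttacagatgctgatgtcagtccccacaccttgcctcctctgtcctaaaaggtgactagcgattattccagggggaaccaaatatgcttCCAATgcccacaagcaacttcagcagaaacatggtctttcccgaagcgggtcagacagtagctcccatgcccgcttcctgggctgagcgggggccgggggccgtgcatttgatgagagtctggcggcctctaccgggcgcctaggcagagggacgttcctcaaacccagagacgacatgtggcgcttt
Gabrb2 (chr11:42420190-42420489, plus strand): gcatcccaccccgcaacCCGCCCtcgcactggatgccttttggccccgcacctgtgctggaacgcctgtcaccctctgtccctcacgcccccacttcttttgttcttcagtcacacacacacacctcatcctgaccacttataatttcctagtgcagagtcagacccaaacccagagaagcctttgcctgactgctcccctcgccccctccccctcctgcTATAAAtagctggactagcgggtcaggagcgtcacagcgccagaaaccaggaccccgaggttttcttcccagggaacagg
Gabrg3 (chr7:57387166-57387465, minus strand): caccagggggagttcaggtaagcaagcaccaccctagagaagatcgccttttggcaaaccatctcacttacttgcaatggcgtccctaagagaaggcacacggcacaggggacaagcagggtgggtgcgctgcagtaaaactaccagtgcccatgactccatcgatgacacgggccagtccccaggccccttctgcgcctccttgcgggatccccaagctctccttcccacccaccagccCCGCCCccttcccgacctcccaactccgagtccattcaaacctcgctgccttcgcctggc

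The window of Gabra3 held no CpG at a GC content of 43%. By contrast, Gabra5 held 13 CpG (56.7% GC), Gabrb2 held 11 (59% GC) and Gabrg3 held 13 (61% GC). Over 32851 such windows the median was 7 CpG at 52.7% GC. TATAAA was found in Gabra3 and Gabrb2 and in 13.6% of all windows, GGGCGG in Gabrb2 and Gabrg3 and in 35.7%, and CCAAT in Gabra3, which holds 2, and Gabra5 and in 37.4%. No motif was found in all 4 windows. These values hold for the printed windows. Further downstream, a Gabrb2 window at chr11:42420524-42420823 held CCAAT alone (54.7% GC), and that at chr11:42420951-42421250 held none of the motifs (41% GC). The other window of Gabra3 held TATAAA and CCAAT as well (39.3% GC).

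The libraries held 3.389 M to 33.49 M RefSeq reads (median 28.38 M). The shallow one, Kdm3b female 22, stood far below the next, which had 23.93 M. In 3 libraries Xist, or Xist and Y-linked genes, went against the labelled sex. Rgs9 female 43 had 4479 reads of Y-linked genes and 3 of Xist, and Rasgef1a male 40 had 0 and 32425. Rasgef1a female 39 had 0 and 2, so only its Xist went against the label. Slc17a7, of excitatory neurons, fitted the cortex label with a median of 40447.5 reads. Markers of choroid plexus were uneven, with Ttr at a median of 9.5 and up to 7708 reads. Their summed level ran from 1.4 to 308.4 CPM in the 10 lines. Gabra6, the alpha subunit of cerebellar granule cells, was at 0 reads in 94 libraries and at 1 or 2 reads in the rest. One library bears on several results below: Gsg1l male 13 had the lowest Gabrb2 and Gabrg3 and the highest Gabrd of all libraries.

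Per length, Gabrb2 was the highest of the 5 genes and Gabrg3 the lowest. Levels between genes are given in RefSeq FPKM, fragments per kilobase of gene model, scaled to the depth of the library, as mean ± SD over all libraries. Gabrb2, whose product takes part in binding GABA, stood at 58.9 ± 3.08 FPKM. Gabrd stood at 49.1 ± 2.81 FPKM, Gabra3 at 42.7 ± 1.84, Gabra5 at 15.4 ± 1.66 and Gabrg3 at 4.49 ± 0.54, near Gabrg1 at 4.39 ± 0.33 FPKM. Within a library this order was steady. Gabrb2 exceeded Gabrd in all libraries but 1, and Gabrd exceeded Gabra3 in all but 3. Gabra3 exceeded Gabra5, and Gabra5 exceeded Gabrg3, in every library.

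Among the 19 subunit genes the 5 ranked 3 (Gabrb2), 5 (Gabrd), 6 (Gabra3), 8 (Gabra5) and 11 (Gabrg3). Of the summed FPKM of all subunits, Gabrb2 held 11.7%, Gabrd 9.79%, Gabra3 8.51%, Gabra5 3.07% and Gabrg3 0.894%.

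The order at the top depended on the gene models. In the authors' Ensembl FPKM, Gabra3 was first at 36.7 ± 1.60, above Gabrb2 in every library. Gabrb2 followed at 31.5 ± 2.35 FPKM and Gabrd at 30.1 ± 1.68 FPKM, and these neighbours were not apart beyond their spread, with Gabrb2 the higher in 81 libraries and Gabrd in the rest. Gabra5 (12.7 ± 1.39 FPKM) and Gabrg3 (3.08 ± 0.23 FPKM) kept the lowest places.

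**Figure D1:**
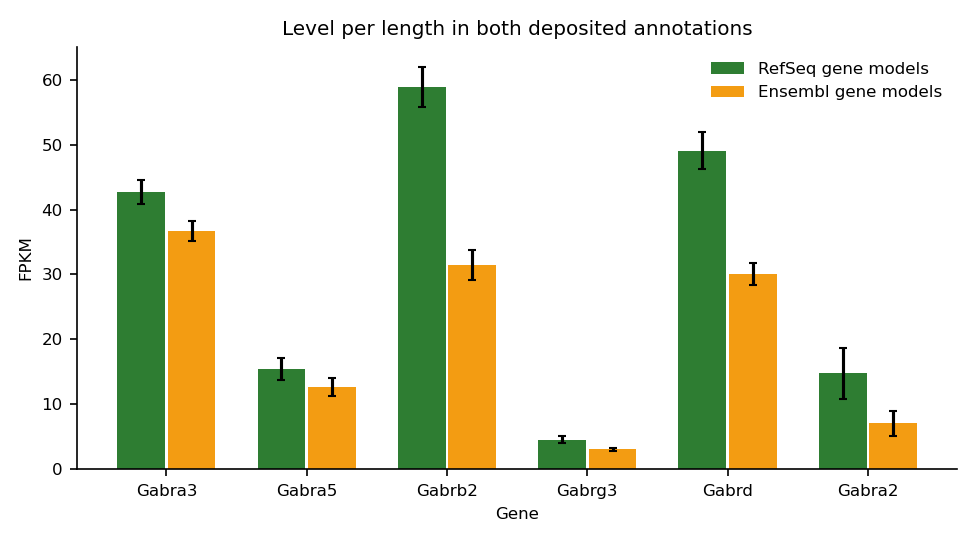
Mean FPKM of the 5 subunit genes and Gabra2 over all libraries, with RefSeq (green) and Ensembl (orange) gene models; error bars are the SD between libraries. Gabrb2 is the highest of the 5 with RefSeq models (58.9) and second to Gabra3 with Ensembl models (31.5 against 36.7).

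The reads behind these values differed between the annotations for Gabrb2 and Gabrg3. Gabrb2 had 0.498 times as many reads in the Ensembl counts as in the RefSeq counts, and its RefSeq gene ends 3563 bases further 3′ than its GENCODE gene. Gabrg3 had 5.41 times as many Ensembl reads, a median of 1173.5 against 218 RefSeq reads per library. The RefSeq FPKM of Gabrg3 was scaled to a model of 1.67 kb, against 11.93 kb of exons in GENCODE. For Gabra3, Gabra5 and Gabrd the ratio of Ensembl to RefSeq reads was 1, 1.01 and 1.03. The Ensembl counts as available here broke off before their end, and Gabrr3 had none. Scaling and adjustment in fits to Ensembl counts thus rest on the genes given whole.

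Between mice, Gabra3 varied least and Gabrg3 most in the RefSeq values. Within-gene values are given from here in CPM, RefSeq read counts per megaread after TMM scaling. The coefficient of variation over all libraries was 4.34% for Gabra3, 5.37% for Gabrb2, 5.51% for Gabrd, 10.8% for Gabra5 and 12.2% for Gabrg3. For Gabra2 it was 26.3%. Counting alone gives 6.77% at the median of 218 reads for Gabrg3, against 2.87% for Gabra5 and 0.887% for Gabrb2. With the larger Ensembl counts the coefficient of Gabrg3 was 7.6% (FPKM), against 12.1% in RefSeq FPKM. In Ensembl FPKM Gabra5 was thus the most variable of the 5 at 10.9%, and Gabra3 the least at 4.36%.

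The line means of Gabra3 ran from 156.5 CPM in Dach1 to 162.9 CPM in Kdm3b, and for Gabra5 from 37.8 CPM in Tbc1d8 to 43.4 CPM in Kdm3b. For Gabrb2 they ran from 425.4 CPM in Rgs9 to 460.1 CPM in Kdm3b, and for Gabrg3 from 6.94 CPM in Pcdh20 to 8.23 CPM in Kdm3b. Gabrd ran from 86.9 CPM in Rasgef1a to 95.2 CPM in Morf4l1. Kdm3b was thus the highest line for 4 of the 5 genes.

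**Figure D2:**
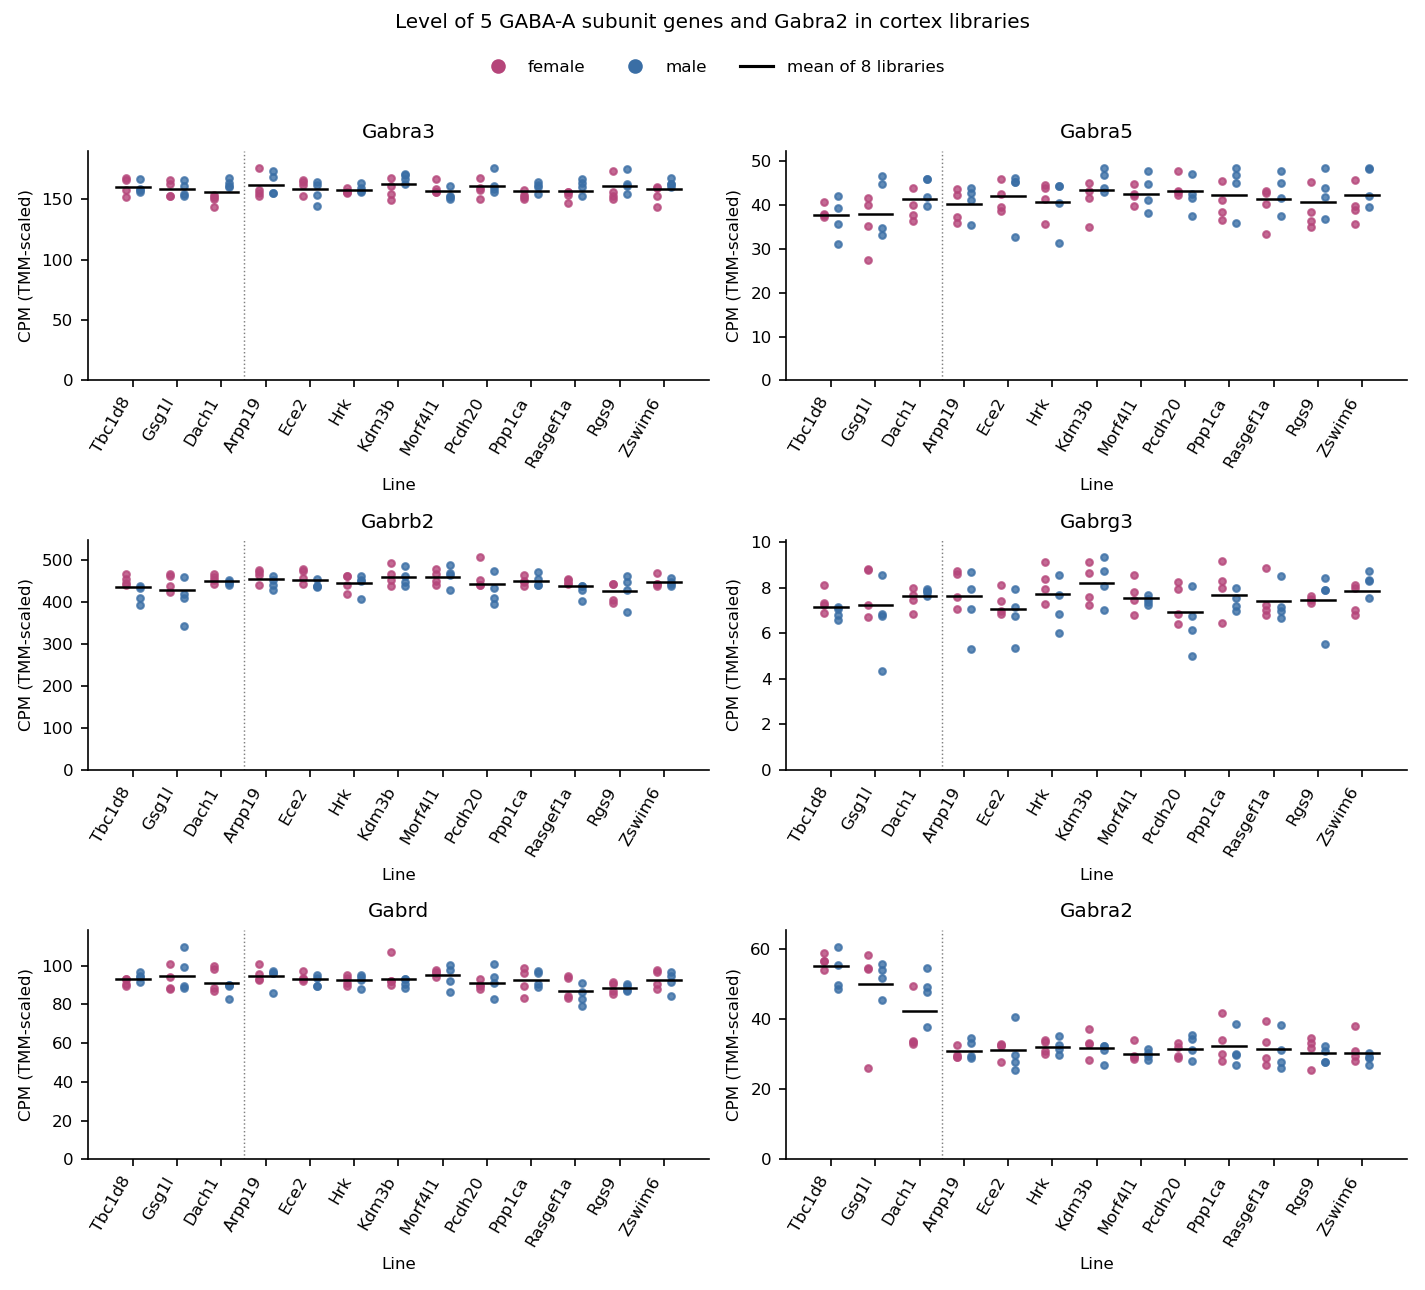
TMM-scaled CPM of the 5 subunit genes and Gabra2 in each library by line, with females left and males right of each line's position and a bar for the mean of 8 libraries. Gabra2 is raised in Tbc1d8, Gsg1l and part of Dach1, left of the dotted line, while the libraries of the lines overlap for the 5 genes, of which Gabra5 has its lowest mean in Tbc1d8 (37.8 CPM).

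None of the 5 genes passed an F-test of the 13 lines (quasi-likelihood test of edgeR, p adjusted over all 15723 genes by Benjamini and Hochberg, called under 0.05), against 9.61% of all genes. The adjusted p was 0.131 for Gabrd, 0.138 for Gabrb2, 0.38 for Gabra5, 0.598 for Gabrg3 and 0.775 for Gabra3. Of the 9 other subunits tested 4 were called, Gabra2 among them. When each line was set against the other 12, none of the 5 genes was called in any line, where 1.79% of all gene and line pairs were. The difference with the smallest adjusted p outside Tbc1d8 and Gsg1l was that of Gabrd in Rasgef1a, at -0.093 ± 0.027 (log2 ± SE, edgeR adjusted p = 0.192). Between lines lay 8.53% of the variance of log2 CPM for Gabra3, 13.3% for Gabrg3, 15% for Gabra5, 20.5% for Gabrb2 and 21.7% for Gabrd. The median over all genes tested was 14.1%, and 69.6% of the variance of Gabra2 lay between lines.

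Where Gabra2 was high, none of the 5 genes was called, and the largest shift was that of Gabra5. Gabra2 averaged 55.0 ± 4.23 CPM in Tbc1d8, 50.03 ± 10.4 in Gsg1l and 42.4 ± 8.77 in Dach1 (SD, n = 8 each), against 31.2 ± 3.46 CPM in the 10 lines (n = 80). These levels chose the 3 lines and are given as a description. The Gabra2 log2 differences were 0.82 in Tbc1d8, 0.68 in Gsg1l and 0.44 in Dach1. In these bulk samples, fewer cells that express a gene and less RNA per cell cannot be told apart.

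In Tbc1d8 none of the 5 genes was called, against 15.5% of all genes. Gabra5, which marks tonic inhibition in hippocampus and deep cortical layers, ran from 31.2 to 42.1 CPM in the 8 Tbc1d8 libraries with a median of 37.9 CPM, against 31.4 to 48.6 CPM in the 10 lines with a median of 42.5 CPM. The ranges overlapped widely, but all 8 Tbc1d8 libraries lay below the median of the 10 lines. Its log2 difference was -0.15 ± 0.056 (SE, 95% interval -0.26 to -0.038, or 16.5% to 2.62% lower), with an edgeR adjusted p of 0.0551.

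The lowest Gabra5 values of Tbc1d8 were those of male 45 (31.2 CPM) and male 47 (35.6 CPM), the only Tbc1d8 libraries on plate 2. On plate 1 alone the difference was -0.090 (edgeR adjusted p = 0.438), and with mice of a shared number summed it was -0.12 (0.173). It passed the threshold with DESeq2 (-0.15, adjusted p = 0.0429) and, with edgeR, without the shallow library Kdm3b female 22 (adjusted p = 0.0493), without Tbc1d8 female 48 (0.0385), without Tbc1d8 male 48 (0.0414) or without Gsg1l male 13 (0.0489).

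The other 4 genes stayed nearer the 10 lines in Tbc1d8. Gabrb2 ran from 391.5 to 466.9 CPM with a median of 438.8 CPM in Tbc1d8, against 376.7 to 506.5 CPM with a median of 447.1 CPM in the 10 lines. Its log2 difference was -0.041 ± 0.027 (edgeR adjusted p = 0.326). Gabrg3 had a median of 7.12 CPM in Tbc1d8, against 7.55 CPM in the 10 lines, a log2 difference of -0.078 ± 0.065 (0.472). Gabra3 differed by 0.011 (95% interval -0.034 to 0.056) and Gabrd by 0.015 (-0.039 to 0.069). These intervals leave room for changes of a few percent in Gabra3 and Gabrd, and of 13.4% lower to 3.63% higher in Gabrg3.

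In Gsg1l none of the 5 was called, against 14% of all genes. Gabra5 ran from 27.4 to 46.6 CPM with a median of 37.7 CPM in Gsg1l, against the median of 42.5 CPM in the 10 lines. The Gsg1l libraries spread widely, with an SD of 6.47 against 4.16 CPM, and 6 of 8 lay below that median. The log2 difference was -0.14 ± 0.056 (95% interval -0.25 to -0.033, edgeR adjusted p = 0.0693). It was called without male 13 (-0.19, 0.0297), without female 14 (-0.17, 0.0355) or without male 16 (-0.18, 0.0314), and came to -0.094 (0.33) without female 13.

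Gabrb2 ran from 343.5 to 466.4 CPM in Gsg1l with a median of 429.6 CPM, against the median of 447.1 CPM in the 10 lines. One library, male 13 at 343.5 CPM, lay far below the others, of which the next was male 14 at 409.1 CPM. The log2 difference was -0.066 ± 0.027 (edgeR adjusted p = 0.0823), and -0.028 (0.57) without male 13. In females alone it was -0.014 (0.849) and in males alone, which include male 13, -0.12 (0.0768). In the Ensembl counts it was -0.13 and called (0.0116). On plate 1 alone it was called (-0.083, 0.039), as it was without female 15 (0.0338), female 16 (0.042) or male 16 (0.0267), fits that keep male 13.

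Gabrg3 in Gsg1l had a log2 difference of -0.056 ± 0.065 (edgeR adjusted p = 0.63), and 0.023 (0.88) without male 13. Gabrd was at 87.8 to 109.9 CPM in Gsg1l, against 79.4 to 107.1 CPM in the 10 lines. It differed by 0.046 ± 0.027 (0.275), and by 0.012 (0.846) without male 13. Gabra3 differed by -0.005 (95% interval -0.050 to 0.040).

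Dach1 called none of the 5, against 0.235% of all genes. All 5 log2 differences were within 0.026 of 0, with adjusted p from 0.776 (Gabra3) to 0.962 (Gabra5) by edgeR. Gabra5 ran from 36.38 to 46.03 CPM in Dach1 with a median of 41.01 CPM, close to the 42.5 CPM of the 10 lines.

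**Figure D3:**
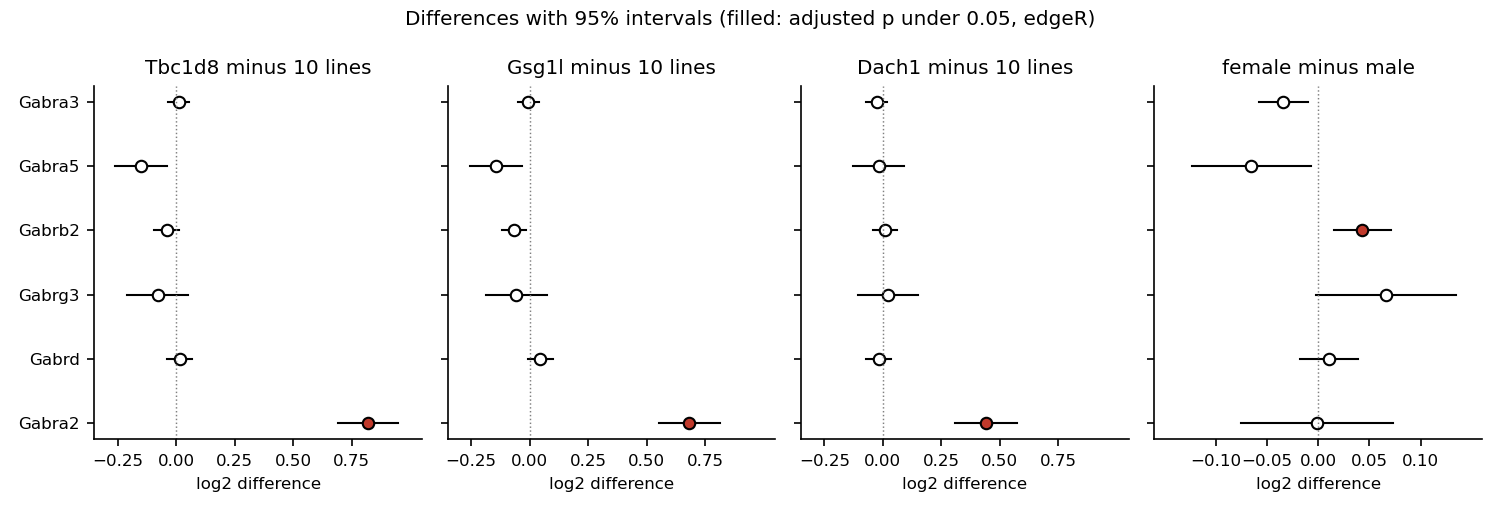
Log2 differences (points) with 95% intervals (lines) of the 5 genes and Gabra2, for Tbc1d8, Gsg1l and Dach1 minus the 10 lines and for females minus males, the last on an axis of smaller range. Filled points have an adjusted p under 0.05 by edgeR; of the 5 genes only Gabrb2 by sex is filled, and Gabra5 lies at -0.15 and -0.14 in Tbc1d8 and Gsg1l. Gabra2 chose the 3 lines and is drawn for scale.

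Over the 5 genes the median log2 difference was -0.041 in Tbc1d8, -0.056 in Gsg1l and -0.017 in Dach1, beside a median of 0.006, 0.006 and 0.000 over all genes tested. Among the 9 other subunits tested, 4 were called in Tbc1d8, against 15.5% of all genes. One was Gabra2, which chose the line, and the other 3 fell. In Gsg1l, where 14% of all genes were called, 4 were called as well, Gabra2 and 3 that fell, among them Gabrr2 (-0.71). Gabrr2, a rho subunit of retina, was low at 0.349 CPM in Gsg1l and 0.573 CPM in the 10 lines. Dach1 called Gabra2 alone, against 0.235% of all genes.

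As shares of the summed FPKM of 5 alpha subunit genes, Gabra2 was higher in the 3 lines and Gabra5 and Gabra3 lay near the 10 lines. Gabra2 made up 9.44 ± 0.62% in Tbc1d8, 8.54 ± 1.83% in Gsg1l and 6.91 ± 1.37% in Dach1, against 5.21 ± 0.65% in the 10 lines. Gabra5 made up 5.80 ± 0.49% in Tbc1d8, 5.78 ± 0.93% in Gsg1l and 6.05 ± 0.35% in Dach1, against 6.24 ± 0.53% in the 10 lines. Gabra3 stayed at 17.7 ± 0.70%, 17.4 ± 0.53% and 16.4 ± 0.77% in Tbc1d8, Gsg1l and Dach1, against 17.03 ± 0.86% in the 10 lines. The sum was 244.6 ± 10.3 FPKM in Tbc1d8, 247.5 ± 9.46 in Gsg1l and 255.7 ± 7.50 in Dach1, against 250.8 ± 10.3 FPKM in the 10 lines, so the sums overlapped.

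Some cell type markers moved with these lines. Their counts stand beside 15.5% of all genes called in Tbc1d8 and 14% in Gsg1l. Of 7 pan-neuronal and excitatory markers 5 were called in Tbc1d8 (2 higher, 3 lower) and 2 in Gsg1l (both higher). Their summed level was 14100 to 15350 CPM in Tbc1d8 and 14380 to 15540 in Gsg1l, against 14040 to 15520 CPM in the 10 lines. Of 11 interneuron markers 5 were called in Tbc1d8 (3 higher, 2 lower) and 3 in Gsg1l (1 higher, 2 lower). Of 7 markers of oligodendrocyte precursors 2 were higher in Tbc1d8 and none was called in Gsg1l. Of 8 oligodendrocyte markers none was called in Tbc1d8 and 1 was in Gsg1l. Their summed level was 1902 to 2303 CPM in Tbc1d8 and 1817 to 2629 in Gsg1l, against 1513 to 2747 CPM in the 10 lines, and their score, the mean log2 CPM of the list, was lower by 0.12 and 0.13. Of 7 markers of layer 2 to 4 neurons 2 were lower in Tbc1d8 (Lamp5 and Scnn1a) and 1 in Gsg1l (Lamp5). Lamp5 is also among the interneuron markers counted as lower in both lines. Over the 7 layer 2 to 4 markers the median log2 difference was -0.020 in Tbc1d8 and 0.064 in Gsg1l. None of 8 markers of layer 5 and 6 neurons and none of 7 astrocyte markers was called in either line. With the scores of striatal, hippocampal, oligodendrocyte, choroid plexus and erythroid markers as covariates, the Gabra5 difference was -0.099 in Tbc1d8 (edgeR adjusted p = 0.274) and -0.10 in Gsg1l (0.276). Alas2 alone stood for the erythroid markers, of which 1 of 5 was tested. Scores of astrocytes, oligodendrocyte precursors and layer 5 and 6 neurons were not among these covariates. Whether cell makeup plays a part in the Gabra5 values was not tested.

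Females and males differed in 1 of the 5 genes, Gabrb2, against 8.57% of all genes. Gabrb2 ran from 398.1 to 506.5 CPM in females with a median of 449.8 CPM, and from 343.5 to 487.2 CPM in males with a median of 439.2 CPM. It averaged 451.5 ± 19.2 CPM in females and 438.3 ± 26.4 CPM in males (SD, n = 52 each). The ranges overlapped, and females were the higher in 10 of 13 lines. The log2 difference was 0.043 ± 0.014 (95% interval 0.015 to 0.071, or 1.07% to 5.05%, edgeR adjusted p = 0.0375). The call was lost without the 3 libraries that went against their labelled sex (0.041, 0.061), without Gsg1l male 13 (0.037, 0.0528) and in the Ensembl counts (0.052, 0.0889), and the adjusted p was 0.0545 on plate 1 alone and 0.051 with no filter on low counts. It was also lost without the line Arpp19 (0.0724), Ece2 (0.0723), Gsg1l (0.0764), Pcdh20 (0.0919), Rasgef1a (0.0778) or Tbc1d8 (0.113). Of 27 alternatives 15 called Gabrb2, and all 27 gave a higher level in females.

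Of the 9 other subunits tested 2 were called by sex, both higher in females, against 8.57% of all genes in either direction. X-linked Gabra3 averaged 157.1 ± 6.90 CPM in females and 161.0 ± 6.42 CPM in males. It was the lower in females in 10 of 13 lines, with a log2 difference of -0.034 ± 0.012 and an adjusted p of 0.0585, and was called on plate 1 alone (-0.043, 0.0192) and without the line Ece2 (0.0233) or Morf4l1 (0.0336). Gabra5 averaged 40.3 ± 3.92 CPM in females and 42.2 ± 4.78 in males (-0.065 ± 0.029, 0.156). Gabrg3 averaged 7.69 ± 0.75 CPM in females and 7.34 ± 1.03 in males (0.066 ± 0.034, 0.235). Gabrd averaged 92.7 ± 4.80 CPM in females and 91.9 ± 5.37 in males (0.011 ± 0.014, 0.721).

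Markers of oligodendrocyte precursors were higher in females, with 3 of 7 called (Gpr17, Vcan and Cacng4), and so were 2 of 8 oligodendrocyte markers (Mog and Cldn11), against 8.57% of all genes called in either direction. Lower in females were 2 of 7 pan-neuronal and excitatory markers (Rbfox3 and Slc17a7) and 2 of 11 interneuron markers (Htr3a and Calb2). The summed levels were 201.2 to 253.4 CPM in females and 184.6 to 247.8 in males for precursors, and 1513 to 2747 in females and 1797 to 2672 CPM in males for oligodendrocytes. With the 5 marker scores as covariates, the Gabrb2 difference by sex was 0.035 (edgeR adjusted p = 0.138), and that of Gabra5 was -0.096 and called (0.036). No interaction of line and sex was called for the 5 genes (adjusted p = 1 each), against 0.0382% of all genes, which is 6 genes.

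After the mean of each line and sex was removed, 4 of the 5 genes varied together from mouse to mouse, and Gabrd did not join them. Among 15 pairs of the 5 genes and Gabra2, 7 were called over all libraries. The p-values came from 100000 permutations within line and sex, adjusted over the 15 pairs. The share called among pairs of other genes was not computed, so the count is not shown to be particular to these genes. Gabrb2 and Gabrg3 had the highest correlation, with Pearson's r = 0.601 (Spearman's rho = 0.465, permutation p = 1e-05, the smallest the permutations can give, adjusted p = 0.00015). Without the 2 libraries farthest from the median, Gsg1l male 13 and Rgs9 male 44, r was 0.499.

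The other called pairs among the 5 were weaker. Gabra3 went with Gabrb2 (r = 0.412, rho = 0.398, permutation p = 0.00023, adjusted p = 0.00115), with Gabra5 (0.369, 0.37, 0.00095, 0.00356) and with Gabrg3 (0.366, 0.292, 0.00183, 0.00458). Gabra5 went with Gabrb2 (r = 0.376, rho = 0.409, permutation p = 0.00138, adjusted p = 0.00414) and with Gabrg3 (0.336, 0.324, 0.00737, 0.0158). Without the 2 libraries farthest in the gene named first these r were 0.467, 0.403, 0.372, 0.367 and 0.274. The r of Gabrd with the other 4 lay between -0.108 and -0.062.

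Gabra5 ran against Gabra2 over all libraries, though not in each line. Their r was -0.458 (rho = -0.438, permutation p = 0.00017, adjusted p = 0.00115), and -0.462 without Gsg1l female 14 and Dach1 female 7, the libraries farthest in Gabra2. By line, with 8 libraries each and as a description, r was below 0 in 12 of 13 lines, among them Tbc1d8 (-0.657) and Gsg1l (-0.507). In Dach1 it was 0.0776, and 0.41 where the difference between the sexes was kept. Gabra2 with Gabra3 (r = -0.045), Gabrb2 (-0.002) and Gabrg3 (-0.202, adjusted p = 0.132) was not called. With Gabrd, r was -0.214 (adjusted p = 0.152) and rho -0.284 (0.0279), and r was -0.345 (0.00686) without Gsg1l female 14, the library with the lowest Gabra2 of its line (26 CPM). Without Gsg1l male 13, Gabra2 and Gabrg3 had r = -0.275 (0.0291).

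**Figure D4:**
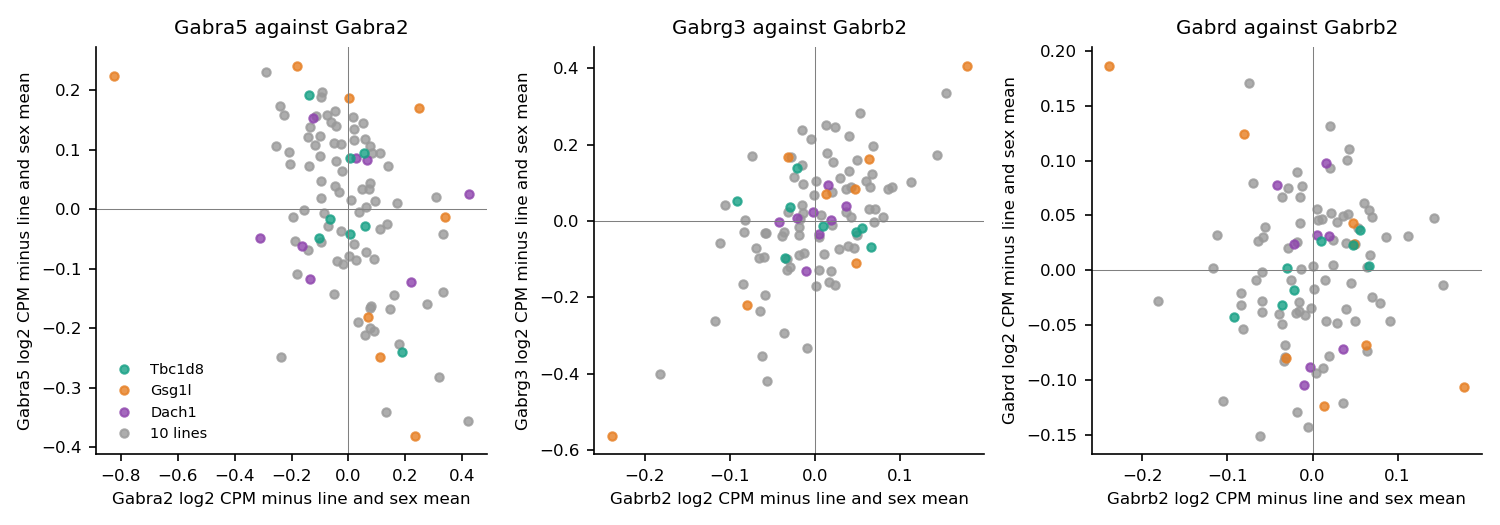
Log2 CPM of pairs of genes in all libraries after the mean of each line and sex was removed, with Tbc1d8, Gsg1l and Dach1 in colour and the 10 lines in grey. Over all lines Gabra5 falls as Gabra2 rises (r = -0.458), though not in Dach1 (0.0776), Gabrg3 rises with Gabrb2 (r = 0.601) and Gabrd with Gabrb2 was not called (r = -0.063); Gsg1l male 13 lies at the lower left of the middle panel.

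The same within-line deviations were set beside the scores of 18 marker lists, 108 relations with Gabra2 included. Of these 29 were called (permutation within line and sex, adjusted over the 108), and the share for other genes was not computed. Gabra3, Gabra5, Gabrb2 and Gabrg3 rose with markers of layer 5 and 6 neurons, with r = 0.38, 0.513, 0.31 and 0.409 (adjusted p = 0.00548, 0.000216, 0.019 and 0.00393). Gabrd ran against them by r (-0.295, adjusted p = 0.0349), but was not called by rho (-0.243, adjusted p = 0.0935). Without the 2 libraries farthest in that score, r was -0.238. Gabrd rose with markers of layer 2 to 4 neurons (r = 0.551, rho = 0.54, adjusted p = 0.000216). Astrocyte markers ran against Gabra5 (r = -0.579, rho = -0.526), Gabrb2 (-0.507, -0.498) and Gabrg3 (-0.457, -0.427), all called. Thalamic markers ran against Gabra3 (r = -0.418), Gabra5 (-0.401), Gabrb2 (-0.309) and Gabrg3 (-0.279), all called. Gabra2 and Gabra5 had opposite signs with 2 glial lists, all called by r. With oligodendrocyte markers r was -0.366 for Gabra2 (adjusted p = 0.0458) and 0.321 for Gabra5 (0.0379). By rho these were not called (-0.275, adjusted p = 0.0518, and 0.262, 0.0674). With precursor markers it was 0.33 (0.0245) and -0.519 (0.000216). Without the 2 libraries farthest in the oligodendrocyte score, Gabra2 had r = -0.207 with it.

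When all 18 scores were removed from the deviations, 3 of the 15 pairs were called. Gabrb2 and Gabrg3 had r = 0.484 (adjusted p = 0.0039), Gabra3 and Gabrb2 0.276 (0.0258), and Gabra2 and Gabra5 -0.31 (0.0258). The pair of Gabra5 and Gabrg3 came to -0.017 (0.99). The part of cell makeup in the relations was not tested further.

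**Figure D5:**
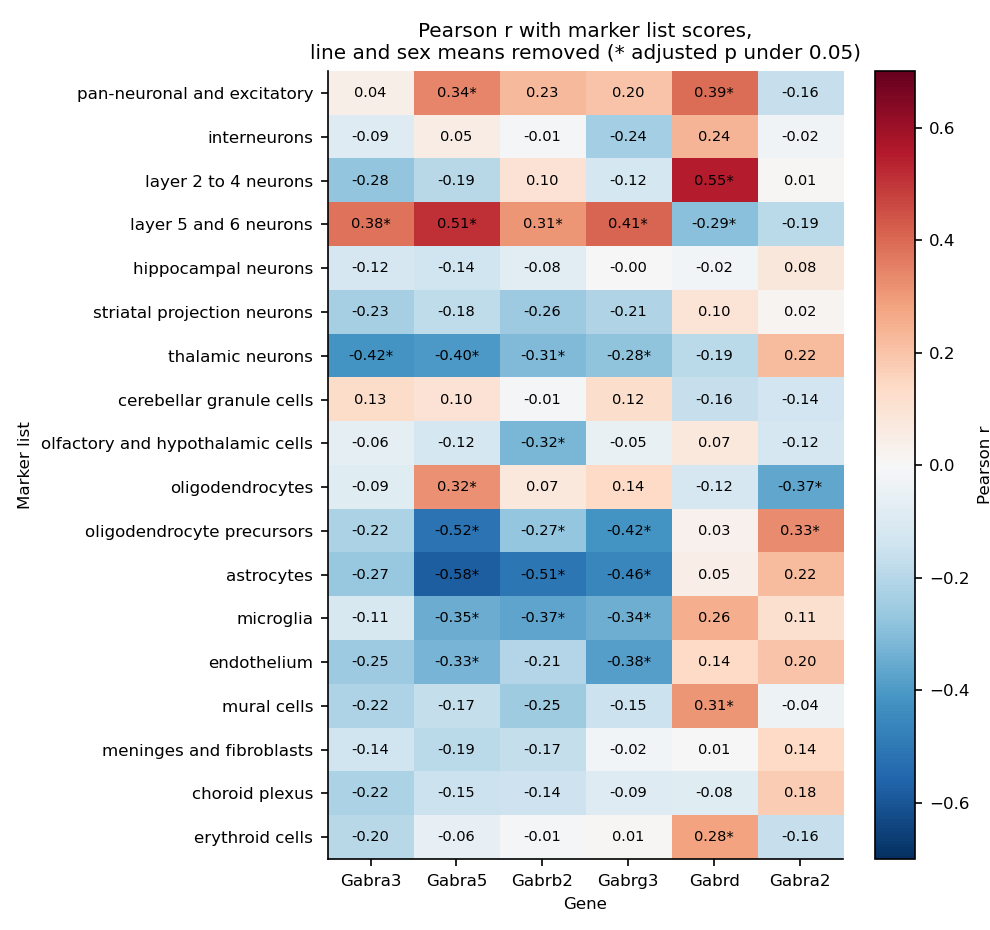
Pearson r between the 5 genes and Gabra2 (columns) and the scores of 18 marker lists (rows) over all libraries, line and sex means removed; asterisks mark an adjusted p under 0.05. Gabrd is red for layer 2 to 4 neurons (0.55) and blue for layer 5 and 6 neurons (-0.29), where the other 4 genes are red (0.31 to 0.51). The asterisks rest on r, and Gabrd with layer 5 and 6 neurons was not called by rho.

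The genes most like each member in log2 CPM over all libraries were sought among 12825 genes whose mean log2 CPM reached 1. For Gabra3 they were Erc2 (r = 0.609), Gng2 (0.589) and Slc35f1 (0.577). For Gabra5 they were Nsf (0.77), Plch1 (0.749) and Snap91 (0.743). Gabrb2 was nearest to Akap6 (0.838), Ncam2 (0.807) and Frrs1l (0.805), and Gabrg3 to Ncam2 (0.704), Kcnh7 (0.673) and Erbb4 (0.666). For Gabrd they were Reep2 (0.707), Kcnj11 (0.653) and Tmem42 (0.608). Ncam2 thus stood near both Gabrb2 and Gabrg3. After line and sex means were removed these r ranged from 0.546 (Erc2) to 0.82 (Akap6). The libraries share depth and composition, so these r are a description.

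The proteins that anchor and carry GABA-A receptors were counted from a list of 19 genes, of which 18 were tested. In Tbc1d8, 8 of 18 were called, 4 higher and 4 lower, against 15.5% of all genes. Ubqln1, which stabilises the receptors inside the cell, fell (-0.087), and Shisa7, an auxiliary protein of the receptor, rose (0.14). Nsf, which Gabra5 followed most closely, was among the 4 lower (-0.060, edgeR adjusted p = 0.0425). In Gsg1l, 4 of 18 were called, against 14% of all genes. Gabarap, which binds gamma subunits, rose (0.096), while Gphn, which encodes the scaffold gephyrin (-0.087), and Ubqln1 (-0.093) were among the 3 that fell. Dach1 called none, and sex called 1, Plcl1 (0.078 higher in females), against 8.57% of all genes.

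Of 8 genes of GABA synthesis, transport and breakdown, Tbc1d8 called 2, both lower, among them Slc32a1, which loads GABA into vesicles (-0.12). Gsg1l called Slc32a1 (-0.10), 1 of 8 and so near the 14% of all genes, Dach1 none, and sex 2, of which 1 was lower in females and Abat, which breaks GABA down, was higher (0.086). Neither chloride transporter, Slc12a2 or Slc12a5, was called in any of these comparisons. These counts, like the next, stand beside 15.5% of all genes in Tbc1d8 and 8.57% by sex. Of 5 genes of GABA-B receptors, Tbc1d8 called Gabbr2 (0.095) and Kctd12 (0.091), both higher, and sex called Kctd8 (-0.13, lower in females).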

How the data were processed

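Cortex RNA of 104 mice was sequenced from stranded libraries, per the labels' protocols. GRCm38 and mm10 are the builds, and STAR (2.7.3a) and HTSeq (0.10.0) the tools, listed per the submitters' processing notes. The strand setting and annotation release are not given in the sources used here. The authors deposited raw read counts per gene for RefSeq and for Ensembl models, and FPKM values for both. The Ensembl counts as available here broke off inside a gene, and only the genes given whole were used. Lines and sexes come from the labels. RefSeq counts were tested with edgeR 4.0.16 in R 4.3.3 (TMM scaling, filterByExpr by line and sex, quasi-likelihood F-tests, Benjamini-Hochberg adjustment over 15723 genes, threshold 0.05). All 104 libraries share 1 estimate of the spread. Alternatives used limma 3.58.1 on log2(FPKM + 0.1) and log2(FPKM + 1), and DESeq2 1.42.0. Correlations used log2 CPM with a prior count of 2 and 100000 permutations, two-sided. Scripts were tested on simulated data. Genes named from other lists were the called ones of smallest p, up to 6 a comparison; the 3 genes most like each member were ranked by r. The members and lists were chosen with earlier results of these data known. Some genes of these lists are not reported here by name.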

Additional observations from a re-analysis of the deposited data

Results flagged for a closer look

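Dixon's ratio was computed for the 5 genes in each of the 13 lines (8 libraries a line, 65 groups), and chance alone flags about 1 in 20 such groups. In 7 groups 1 library stood apart from the others of its line. Gsg1l male 13 was low for Gabrb2 (343.5 CPM) and for Gabrg3 (4.35 CPM). Gabrg3 was also low in Arpp19 male 4 (5.32 CPM), Dach1 female 7 (6.83 CPM), Ece2 male 12 (5.34 CPM) and Rgs9 male 44 (5.55 CPM). Gabrd was high in Kdm3b female 22 (107.1 CPM), the shallow library, where it rests on 363 reads.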

How the results depend on the processing

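DESeq2 changed the test and the scaling together, and limma the test, the unit and the scaling. The number of the 5 genes called in Tbc1d8 was 1, in place of 0, with DESeq2 and without Kdm3b female 22, and ranged from 0 to 1 when each Tbc1d8 library was left out. In Gsg1l it was 1 in the Ensembl counts and on plate 1, and ranged from 0 to 2 over libraries left out. By sex it was 0, in place of 1, with no filter on low counts, in the Ensembl counts and without the 3 libraries against their labelled sex, and ranged from 0 to 2 over lines left out (2 without Morf4l1). In alternatives chosen after seeing the data, leaving out Gsg1l male 13 gave 1 in Tbc1d8, 1 in Gsg1l and 0 by sex. Genes differing between lines numbered 1001 on plate 1 and 987 with marker scores, against 1511. Plate 1 gave 1405 genes in Tbc1d8 and 22 in Dach1, against 2443 and 37. Females alone gave 152 (lines), 665 (Tbc1d8), 378 (Gsg1l) and 12 (Dach1), and males alone 456, 981, 1260 and 16. Dach1 ranged from 22 (without female 7) to 51 over libraries left out, with 23 without male 7. Interaction genes numbered 3 with DESeq2, 0 with limma on either log2 FPKM scale (597 genes had an unadjusted p under 0.05 with edgeR) and 1 without the 3 libraries, against 6. With marker scores removed (added after seeing the data) 3 of 15 correlations were called, against 7, and the r of Gabra5 and Gabrg3 was -0.0169, reversed. Summing mice of a shared middle number (added after seeing the data) gave 1021 genes between lines and 957 by sex, against 1511 and 1347, and as many of the 5 genes in each comparison as with single mice. In Gsg1l 47.9% of calls were higher, against 60.1% and 60.9% with limma on FPKM. The cause of these changes was not tested. With the title number as replicate block (added after seeing the data) 1359 genes were called by sex, against 1347, and 1 of the 5 genes, Gabrb2 (log2 0.044, adjusted p = 0.0114). Of 52 same-numbered pairs 8 had deviations correlated over 0.1 (median 0.017), so the numbers are not taken to pair mice. Depth limits Gabrg3 most, at a median of 218 reads.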

Other observations

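The number of Ensembl reads per RefSeq read varied between libraries for Gabrb2 and Gabrg3. For Gabrb2 the ratio was lowest in Gsg1l male 13 (0.386) and highest in Morf4l1 male 25 (0.527). Its median was 0.482 in Tbc1d8 and 0.487 in Gsg1l, against 0.502 in the 10 lines. For Gabrg3 the ratio ran from 4.52 in Kdm3b female 22 to 7.44 in Pcdh20 male 32, with medians of 5.58 in Tbc1d8 and 5.54 in Gsg1l, against 5.36 in the 10 lines. For Gabra2 the ratio was highest in Gsg1l male 13 (1.86), against a median of 1.68 over all libraries.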
